A study of Arabidopsis thaliana with 45 samples.

Results

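The windows described here are all 200 bp windows that the authors listed as differentially methylated regions (DMRs) in the 3 comparisons of plants under 110 mGy/h (γ110) with background radiation (γ0) or between generations. They were S1γ0 vs. S1γ110, S2γ0 vs. S2γ110 and S1γ110 vs. S2γ110. Each window was counted once per comparison, and no level was used to choose among them. The gene listed for a window is here the one in the authors' column for the 3′ gene, the only gene column read. Whether the authors also assigned a window to another gene, or the location given beside it refers to another gene, was not examined. This gave 21 windows of the 3281 listed in all comparisons of the series. All 21 were in the CG context and lay at 21 different positions, with 4, 4, 4, 2 and 7 windows on chromosomes 1 to 5.

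Rosettes of *Arabidopsis thaliana* (Columbia) were analysed by bisulfite sequencing of the whole genome, which reads a cytosine without methyl group as thymine, in 9 groups of 5 samples and 45 samples in all. The 4 groups of these comparisons (20 samples) were S1γ0 and S2γ0, grown under background radiation, and S1γ110 and S2γ110, which received gamma radiation from a caesium source at 110 mGy/h for 14 days. Exposure began at an age of 7 days by the series' design, whereas the labels of the samples give 14 days. S1 plants grew from seeds of the parent generation (P0) and S2 plants from seeds of S1, and the parents of an irradiated plant had received the same treatment. A γ110 plant of S2 thus differed from one of S1 by a further irradiated ancestor, and also by having grown in a separate generation. Levels of 3 further groups are given where another comparison listed the same window. These were P0γ30, S1γ30 and S2γ30, plants of the same 3 generations irradiated in the same way at 30 mGy/h, of which P0γ30 had no irradiated parents. Control plants grew in a chamber apart from the irradiation unit, so irradiation and chamber cannot be told apart. Within S1 and within S2, irradiation of a plant cannot be told apart from that of its ancestors either. The tables give 1 level per group and no level per sample, coverage or spread. Whether a difference exceeded the spread between the 5 samples can therefore not be shown from them, and no test was made. A level of 0 carries no upper limit either, since the depth is unknown.

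In plants, CG methylation is copied to the new DNA strand by the methyltransferase MET1 after replication, so that a gained or lost CG mark can pass to daughter cells and to offspring. It is found in transposable elements (TEs), where it goes with silencing, and also within the transcribed part of many active genes (gene body methylation). Active demethylation is carried out by glycosylases of the ROS1 family. ATM, met below, is a kinase that signals double-strand breaks in the response to DNA damage.

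Sequences are shown for 5 windows, from the RefSeq TAIR10.1 genome, read 5′ to 3′ on the plus strand with each CG site in capitals. The first 3 are the windows with the largest difference in each comparison. They differ in the number of CG sites behind a level, 3 in the REP window and 1 each in the AT3G01060 and AT5G42660 windows.
REP window, chr3:2032001-2032200, plus strand: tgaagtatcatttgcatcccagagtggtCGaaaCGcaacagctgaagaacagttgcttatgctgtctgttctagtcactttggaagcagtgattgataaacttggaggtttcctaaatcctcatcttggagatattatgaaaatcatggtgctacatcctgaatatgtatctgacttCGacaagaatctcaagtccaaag
AT3G01060 window, chr3:15001-15200, plus strand: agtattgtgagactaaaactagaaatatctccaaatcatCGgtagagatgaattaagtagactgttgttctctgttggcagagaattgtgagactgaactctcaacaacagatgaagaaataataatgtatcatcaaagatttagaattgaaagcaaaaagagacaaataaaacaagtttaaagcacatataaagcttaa
AT5G42660 window, chr5:17104401-17104600, plus strand: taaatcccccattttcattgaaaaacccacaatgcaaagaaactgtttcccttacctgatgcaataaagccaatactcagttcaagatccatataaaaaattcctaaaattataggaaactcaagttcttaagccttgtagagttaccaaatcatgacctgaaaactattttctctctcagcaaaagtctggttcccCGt
The REP window has CG sites at positions 29, 34 and 178 from its first base. The single site is at position 40 in the AT3G01060 window and at position 198 in the AT5G42660 window.

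The other 2 sequences were chosen after their values were seen. The NRPB12 window had the largest loss of methylation, and the AT3G48195 window lies inside ATM.
NRPB12 window, chr5:16421801-16422000, plus strand: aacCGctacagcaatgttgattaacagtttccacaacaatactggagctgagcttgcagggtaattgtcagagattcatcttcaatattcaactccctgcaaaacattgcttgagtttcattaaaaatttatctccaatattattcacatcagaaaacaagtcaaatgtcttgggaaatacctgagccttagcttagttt
AT3G48195 window, chr3:17806001-17806200, plus strand: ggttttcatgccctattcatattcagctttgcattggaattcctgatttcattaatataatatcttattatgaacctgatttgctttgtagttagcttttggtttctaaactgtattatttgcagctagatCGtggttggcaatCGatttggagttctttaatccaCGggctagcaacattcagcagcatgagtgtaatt
The NRPB12 window has its only CG at position 4, and the AT3G48195 window has CG sites at positions 132, 145 and 167. The GC content of the 5 windows ranged from 30.5% to 40.0%.

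Over the 21 windows, 9 were hypermethylated and 12 hypomethylated in the second-named group. The absolute difference between both levels, given as fractions from 0 to 1, ranged from 0.220 to 0.867 with a median of 0.570. For comparison, the 2310 different CG windows listed in the other comparisons alone had a median of 0.30, taking the largest difference of each window. A single CG, which went with larger differences in both sets, was present in 42.9% of the 21 windows and 8.23% of the 2310. Its part in the contrast of both medians was not tested. In 14 of the 21 windows one of both groups had a level below 0.1, whereas in 7 both groups were above 0.1. No window was listed in more than 1 of the 3 comparisons. They listed 0.000353%, 0.000882% and 0.00247% of genomic windows with a CG, and at such shares nothing can be read from this. The windows were far apart, the closest being those of AT2G25740 and PEX10 on chromosome 2 at 238.2 kb.

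**Figure D1:**
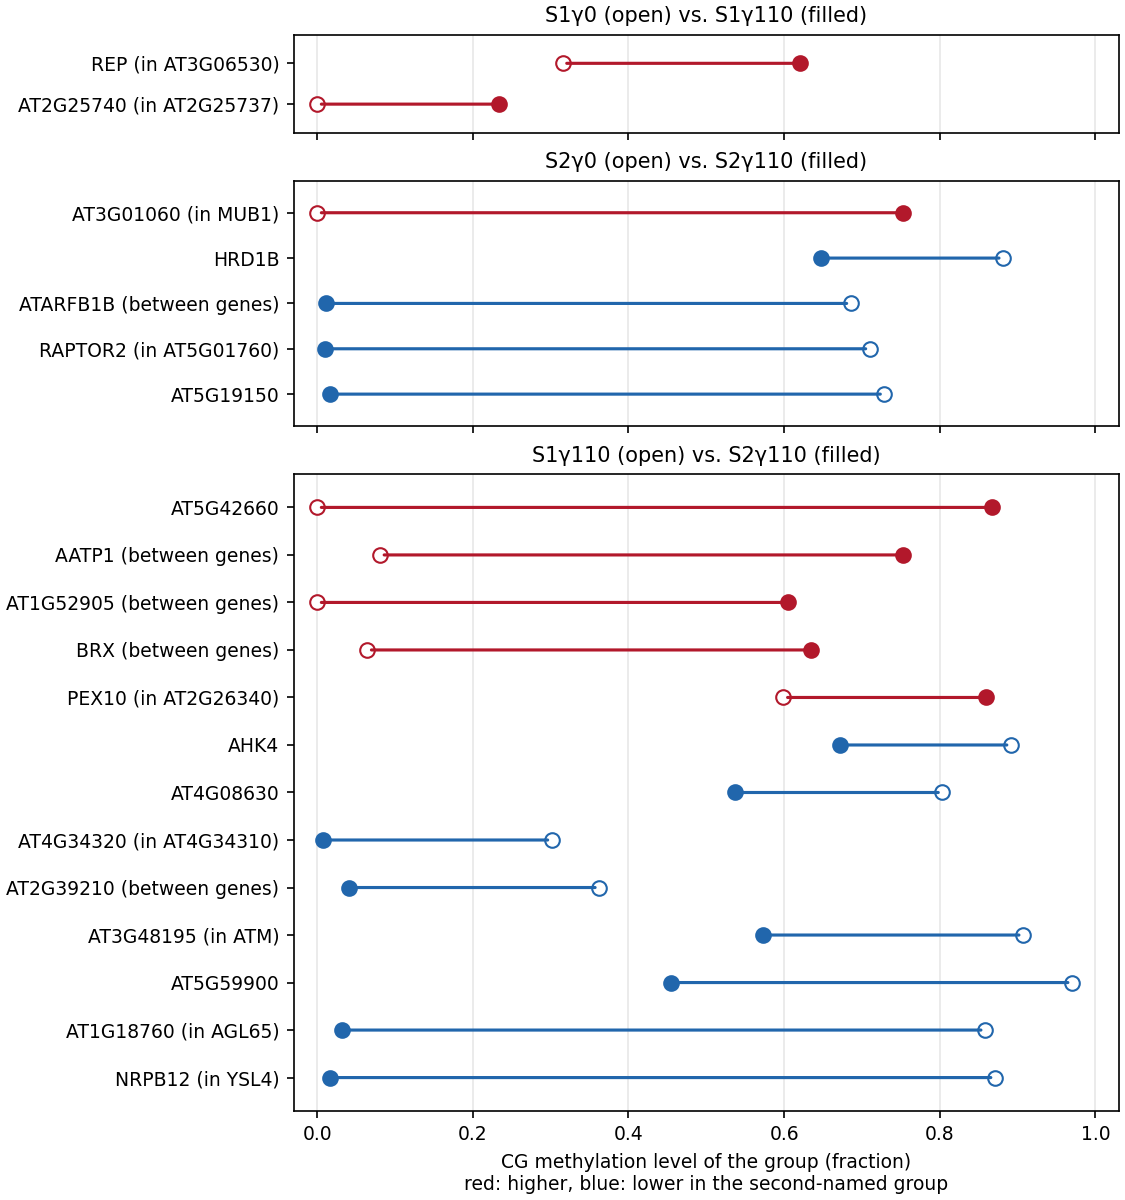
CG methylation level (fraction, x axis) of 20 windows in the first-named (open) and second-named (filled) group of its comparison, 1 level per group with no error available. Windows carry the name of the listed gene and, in brackets, the gene they lie in, and 13 lines have an end below 0.1, while 7 stay above 0.1 at both ends.

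The comparison S1γ0 vs. S1γ110 asks how S1 plants differed after irradiation at the higher dose rate. It listed 2 windows, or 0.000353% of 566882 genomic windows that contain a CG, and both were more methylated in S1γ110. This percentage is a lower bound of the share called, because not every such window need have been tested, and the number tested is not given in the sources used here. The window at chr3:2032001-2032200 had a level of 0.315 in S1γ0 and 0.620 in S1γ110, a difference of 0.30. It was listed under REP, the Rab escort protein needed for lipid attachment to Rab GTPases, as neither promoter nor gene body. By the annotation it lay 2713 bp beyond the 3′ end of REP and inside AT3G06530, an ARM repeat protein gene, with all 3 CG sites in coding sequence and its centre at 84.2% of the gene's 11480 bp. The window at chr2:10978601-10978800 had a level of 0 in S1γ0 and 0.234 in S1γ110. It was listed as promoter of AT2G25740, which encodes a LON domain protein, and its near end was 1322 bp upstream of it. The same window lay inside AT2G25737, a gene of the TauE/SafE sulfite exporter family, with 2 CG sites in coding sequence and 1 in an intron. Neither window was listed in any other comparison, so their levels in S2 or under 30 mGy/h are not known here.

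The comparison S2γ0 vs. S2γ110 asks the same of S2 plants, where the P0 and S1 ancestors of S2γ110 but not of S2γ0 had been irradiated too. It listed 5 windows, or 0.000882% of windows with a CG, of which 1 was hypermethylated and 4 hypomethylated in S2γ110. The median absolute difference was 0.700, against 0.269 for the pair of windows in S1. A single CG was present in 3 of the 5 windows and in 0 of the 2 in S1. With so few windows, nothing can be read from the contrast of both medians. The hypermethylated window, chr3:15001-15200, had a level of 0 in S2γ0 and 0.753 in S2γ110. It was listed as promoter of AT3G01060, which the annotation calls a lysine-tRNA ligase, but lay 1431 bp beyond the 3′ end of that gene. Its single CG was in an intron of MUB1, which encodes a membrane-anchored ubiquitin-fold protein.

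Of the 4 hypomethylated windows, 3 had lost nearly all methylation. At chr5:292401-292600 the level was 0.710 in S2γ0 and 0.0104 in S2γ110. This window was listed as promoter of RAPTOR2, a partner of the growth-regulating TOR kinase, but lay 1075 bp downstream of it. Its single CG was in a coding exon of AT5G01760, an ENTH/VHS/GAT family gene. At chr5:6427401-6427600 the level was 0.729 in S2γ0 and 0.0169 in S2γ110. The single CG of this window was in an intron of AT5G19150, annotated as a pfkB-like carbohydrate kinase, and the window was listed as gene body of that gene. At chr5:5610201-5610400 the level was 0.686 in S2γ0 and 0.0115 in S2γ110. The near end of this window, which has 2 CG sites, was 341 bp upstream of ATARFB1B, an ADP-ribosylation factor of the small GTPases that act in vesicle traffic. It lay between genes and was listed with the TEs AT5TE20315 and AT5TE20320.

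The fourth hypomethylated window stayed methylated in both groups. It was chr1:24161001-24161200, within the gene body of HRD1B, a RING ubiquitin ligase gene related to those that mark misfolded proteins of the endoplasmic reticulum in yeast. Its level was 0.881 in S2γ0 and 0.647 in S2γ110, a difference of -0.23, and all 4 CG sites were in coding sequence.

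The comparison S1γ110 vs. S2γ110 asks what differed between successive irradiated generations at the same dose rate. It listed 14 windows, or 0.00247% of windows with a CG, of which 6 were hypermethylated and 8 hypomethylated in S2γ110. The median absolute difference was 0.543.

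Among the hypermethylated windows, 5 were at or below 0.0807 in S1γ110. The window at chr5:17104401-17104600, in the gene body of AT5G42660 (a gene of a family with the domain DUF616), had a level of 0 in S1γ110 and 0.867 in S2γ110. This was the largest difference of all 21 windows. Its single CG was in a coding exon, at 50.4% of the gene's length.

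The window at chr5:16018401-16018600 had a level of 0.0807 in S1γ110 and 0.753 in S2γ110. It was listed as promoter of AATP1, an AAA-type ATPase, lay 1458 bp beyond the 3′ end of that gene and was listed with the TE AT5TE57840. At chr1:11443801-11444000, 1490 bp upstream of BRX, a regulator of root growth, the level was 0.0644 in S1γ110 and 0.634 in S2γ110. At chr1:19704401-19704600, 1447 bp upstream of AT1G52905 and listed with the TE AT1TE65115, it was 0 in S1γ110 and 0.605 in S2γ110. The last 2 windows were, with that of ATARFB1B, the only 3 of the 21 that lay upstream of the listed gene and outside any protein-coding gene. A further hypermethylated window, chr2:11216801-11217000, was methylated in both groups, at 0.599 in S1γ110 and 0.860 in S2γ110. It was listed as promoter of PEX10, which is needed for peroxisome formation, lay 142 bp beyond its 3′ end, and covered the last part of AT2G26340, a gene of unknown function. The TE listed with it was AT2TE48470.

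Of the 8 hypomethylated windows, 4 had a level below 0.1 in S2γ110. The window at chr5:16421801-16422000 had a level of 0.871 in S1γ110 and 0.0171 in S2γ110. It was listed under NRPB12, a small subunit of RNA polymerases, from which it was 1919 bp upstream. Its single CG lay in a coding exon of YSL4, of a family of metal-nicotianamine transporters. The window at chr1:6467801-6468000 had a level of 0.858 in S1γ110 and 0.0317 in S2γ110. It was listed under AT1G18760, a RING finger gene 3150 bp away, and its single CG was in a coding exon of AGL65, a MADS-box transcription factor gene. The remaining pair started from lower levels. At chr2:16363801-16364000, between genes and 2102 bp downstream of the transporter gene AT2G39210, the level was 0.363 in S1γ110 and 0.0412 in S2γ110. At chr4:16419001-16419200, listed under AT4G34320 but inside AT4G34310, an alpha/beta-hydrolase gene, it was 0.301 in S1γ110 and 0.00807 in S2γ110.

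The other 4 hypomethylated windows kept a level of 0.454 or more in S2γ110, and all 4 lay within coding genes. In AT5G59900, a pentatricopeptide repeat gene, the window chr5:24125201-24125400 had a level of 0.970 in S1γ110 and 0.454 in S2γ110. The window chr3:17806001-17806200 had a level of 0.907 in S1γ110 and 0.572 in S2γ110. It was listed under AT3G48195, a PX domain gene 22372 bp away, yet lay inside ATM (chr3:17801289-17828553), at 17.6% of the gene, with all 3 CG sites in coding sequence. In AT4G08630, annotated as fas-binding factor-like, the window chr4:5509601-5509800 had a level of 0.803 in S1γ110 and 0.537 in S2γ110. In AHK4, which encodes a cytokinin receptor and is named WOL in the annotation, the window chr2:365001-365200 had a level of 0.892 in S1γ110 and 0.671 in S2γ110. Its difference of -0.22 was the smallest of the 21 and the closest to the 20% the authors required.

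Another comparison of the series listed the same window in 9 of 21 cases, which gives the level of further groups. These were 0 of 2 windows of S1γ0 vs. S1γ110, 3 of 5 of S2γ0 vs. S2γ110 and 6 of 14 of S1γ110 vs. S2γ110. In all 9 the levels of S2γ110 and S2γ30 (S2 plants under 30 mGy/h) were close, differing by 0.000613 in the RAPTOR2 window up to 0.0742 in the AT1G52905 window. In all 9 both levels also lay on the same side of those of each other listed group, of which there were 1 to 3 per window, with a smallest gap of 0.234 in the HRD1B window. The listing itself bears on the gap, because a window enters a table only where its 2 groups differ by 20% or more. How far it does was not tested. Each other group was listed against S2γ30 or S2γ110. Which further groups are known at a window is thus set by that filter too. S2γ30 is known at these windows only because it differed from S2γ0, S1γ30 or P0γ30. The listing therefore also bears on the closeness of S2γ30 and S2γ110, and how far was not tested.

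**Figure D2:**
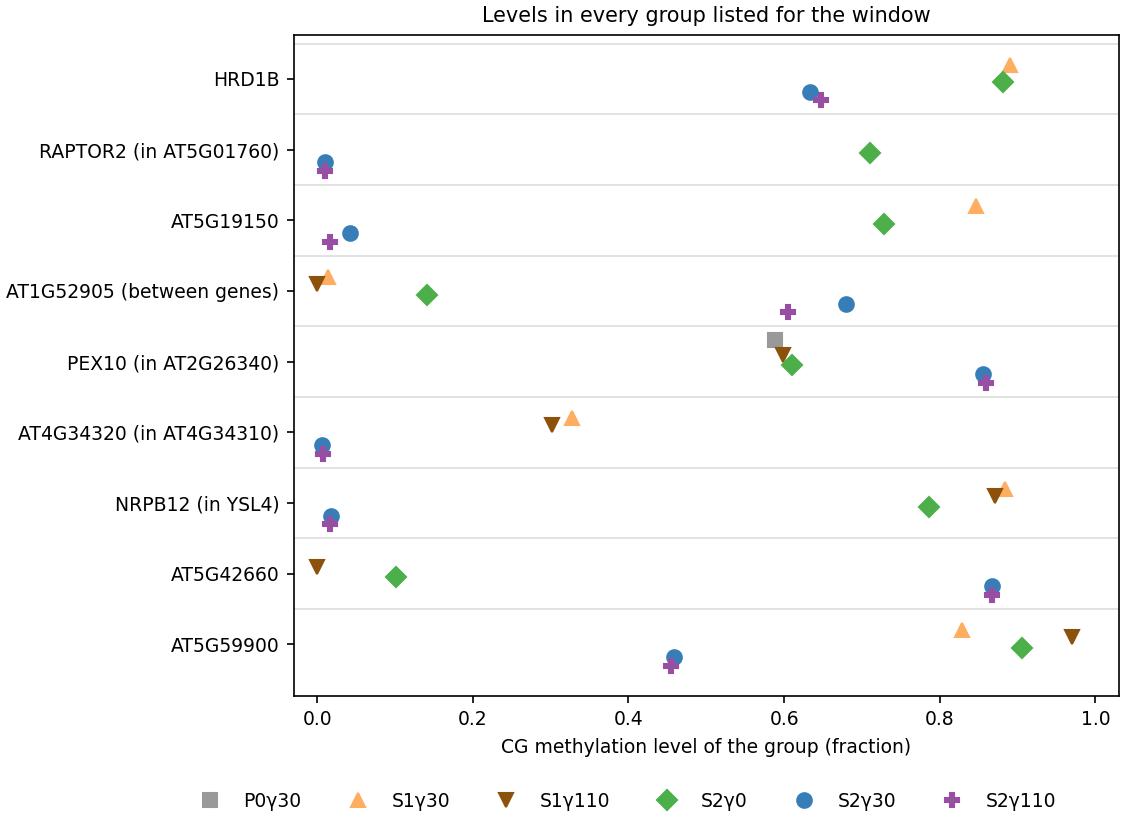
CG methylation level (fraction, x axis) in every group for which the 9 windows found in another comparison are listed, with 1 point per group and no error available. The points of S2γ30 and S2γ110 lie at most 0.0742 apart, and those of P0γ30, S1γ30, S1γ110 and S2γ0, where known, lie together on the far side of a gap.

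Of the 14 windows between S1γ110 and S2γ110, 4 were also listed for S1γ30 vs. S2γ30, a comparison that shares no sample with it. They made up 28.6% of the 14 and 0.216% of the 1848 windows listed for 30 mGy/h, where the CG windows were 0.325% of all windows with a CG. All 4 had the same direction. In the NRPB12 window S2γ30 minus S1γ30 was -0.87 and S2γ110 minus S1γ110 was -0.85. The AT4G34320 window had differences of -0.32 under 30 mGy/h and -0.29 under 110 mGy/h. In the AT1G52905 window the generation difference was 0.67 under 30 mGy/h and 0.60 under 110 mGy/h. The AT5G59900 window differed by -0.37 under 30 mGy/h, from 0.828 to 0.458, and by -0.52 under 110 mGy/h. The difference between generations thus went the same way at both dose rates in these 4 windows, and its size differed most in the AT5G59900 window.

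The 14 windows also shared no sample with S2γ0 vs. S2γ30, whose CG windows were 0.136% of windows with a CG, nor with P0γ30 vs. S2γ30, at 0.048%. The former listed 5 of the 14 (35.7%, and 0.648% of its 772 windows) and the latter 1 of the 14 (7.14%, and 0.366% of its 273 windows), each in the same direction. Counted together, 6 of 14 windows (42.9%) recurred in a comparison without S1γ110 or S2γ110. At the 5 windows with a level for S2γ0, this group was within 0.0109 to 0.141 of S1γ110. In the AT5G42660 window the level was 0 in S1γ110, 0.101 in S2γ0, 0.867 in S2γ30 and 0.867 in S2γ110. In the NRPB12 window it was 0.871 in S1γ110, 0.884 in S1γ30 and 0.786 in S2γ0, against 0.0182 in S2γ30 and 0.0171 in S2γ110. In the PEX10 window it was 0.588 in P0γ30, 0.599 in S1γ110 and 0.610 in S2γ0, against 0.856 in S2γ30 and 0.860 in S2γ110. In all 5 windows with a level for S2γ0, S1γ110 was nearer to S2γ0 than to either irradiated S2 group. The way these windows were listed bears on this, and how far it does was not tested. Each was listed because S1γ110 differed from S2γ110, and S2γ0 is known only where it differed from S2γ30. Whether both groups are also close at other windows was not tested.

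The AT1G52905 window was at 0 in S1γ110, 0.0133 in S1γ30 and 0.141 in S2γ0, and at 0.679 in S2γ30. In the AT5G59900 window S2γ0 was at 0.906. The difference of S2γ110 from S2γ0 was thus 0.77 in the AT5G42660 window, -0.77 in NRPB12, 0.46 in AT1G52905, -0.45 in AT5G59900 and 0.25 in PEX10. None of these 5 windows was listed for S2γ0 vs. S2γ110, although each exceeded the 20% difference. Absence from a table therefore does not mean that both levels were alike.

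For S2γ0 vs. S2γ110, 3 of the 5 windows were listed for S2γ0 vs. S2γ30 too. Both comparisons share the S2γ0 samples, so the levels are given side by side only. From 0.881 in S2γ0, the HRD1B window was at 0.633 in S2γ30 and 0.647 in S2γ110. From 0.710 in S2γ0, the RAPTOR2 window was at 0.00980 in S2γ30 and 0.0104 in S2γ110. From 0.729 in S2γ0, the AT5G19150 window was at 0.0427 in S2γ30 and 0.0169 in S2γ110. The comparison S1γ30 vs. S2γ30, which shares no sample with S2γ0 vs. S2γ110, listed 2 of the 5 windows (40.0%) in the same direction, with S1γ30 at 0.890 in the HRD1B window and 0.846 in the AT5G19150 window.

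Over the whole series, 21 windows had a level for S2γ0, S2γ30 and S2γ110. S2γ110 was nearer to S2γ30 than to S2γ0 in 8, all of them described here. It was nearer to S2γ0 in 13, all of them listed for S2γ30 vs. S2γ110, that is, because these 2 groups differed. The side thus coincided with the listing, so these counts cannot show whether S2γ30 and S2γ110 are close at other windows. No window described here was listed for S2γ30 vs. S2γ110, where 0.00265% of windows with a CG were called, or for S1γ30 vs. S1γ110 (0.00653%). None was listed for S1γ0 vs. S1γ30 (0.0228%) or P0γ30 vs. S1γ30 (0.0325%) either. No level is known for P0γ110, since the 4 comparisons with that group held no window.

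The rule did not use the number of CG sites, and many windows had few. A single CG was present in 9 of 21 windows (42.9%), against 10.2% of all genome windows with a CG and 8.23% of the 2310 windows listed in other comparisons alone. The median was 2 CG sites, against 4 in the genome and 3 in those other listed windows. Windows with 1 CG had absolute differences of 0.321 to 0.867 (median 0.753), and all 9 had a group below 0.1. The 12 windows with 2 or more CG sites had differences of 0.220 to 0.674 (median 0.299), and 5 of them had a group below 0.1. Among the other listed windows the median difference was likewise larger with 1 CG, at 0.652, than with more, at 0.288. In a window with 1 CG the level is that of a single site. The part of site number in which windows passed the authors' filter was not tested.

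**Figure D3:**
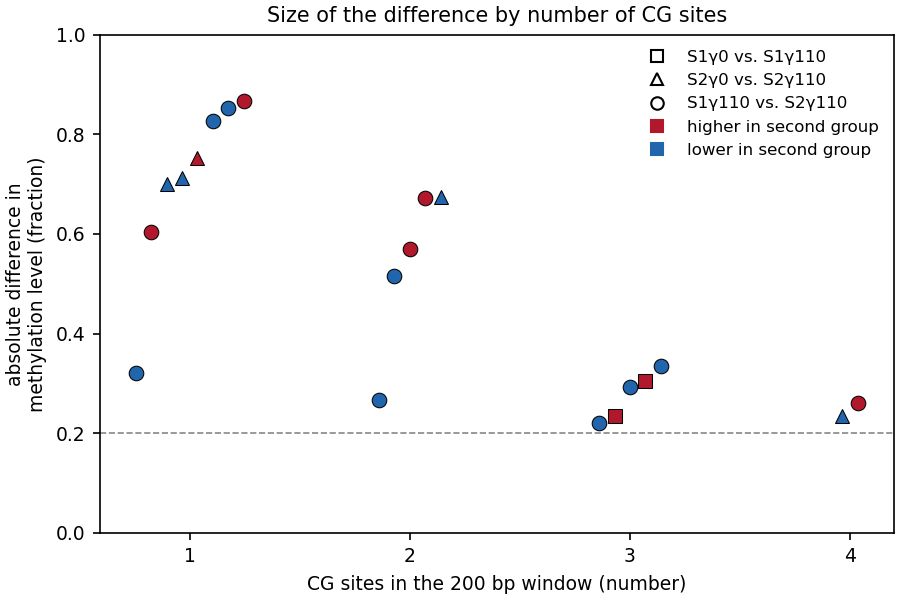
Absolute difference in methylation level (fraction, y axis) by number of CG sites in the window (x axis, points at the same number spread sideways to be seen), with the 20% minimum of the authors as a dashed line. The 8 windows with 1 CG that are drawn lie between 0.321 and 0.867, whereas the 7 windows with 3 or 4 CG sites lie at 0.335 or less.

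By the annotation, 15 of 21 windows (71.4%) overlapped a protein-coding gene and 14 a coding exon, against 58.6% and 45.4% of genome windows with a CG. Of the windows listed in other comparisons alone, 82.5% overlapped a protein-coding gene. Of the 15, 5 were hypermethylated and 10 hypomethylated, whereas 4 of the 6 windows between genes were hypermethylated. The authors' column for the location in the gene gave 6 windows as gene body (1 hypermethylated, 5 hypomethylated), 9 as promoter (7 and 2) and 6 as neither (1 and 5). The 6 named gene bodies were those of HRD1B, AT5G19150, AHK4, AT4G08630, AT5G42660 and AT5G59900, all on the minus strand. All 9 windows inside genes on the plus strand, among them ATM, YSL4, AGL65 and MUB1, were listed under a neighbouring gene, as promoter in 4 cases and as neither in 5. Of the 9 promoter windows, 4 were upstream of the listed gene by its strand and 5 beyond its 3′ end. The gene in the authors' column for the 3′ gene, the only gene column read, is thus not always the gene a window lies in. Whether the authors also assigned such a window to the gene it lies in was not examined. Every listed gene that did not overlap its window lay at higher coordinates. The pattern of strands can therefore not be told apart from the choice of that column. TEs were listed for 4 windows, of which 3 were hypermethylated (AT1G52905, PEX10 and AATP1) and 1 hypomethylated (ATARFB1B). The share of all windows with a CG that overlap a TE is not given here, so nothing can be read from these counts.

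**Figure D4:**
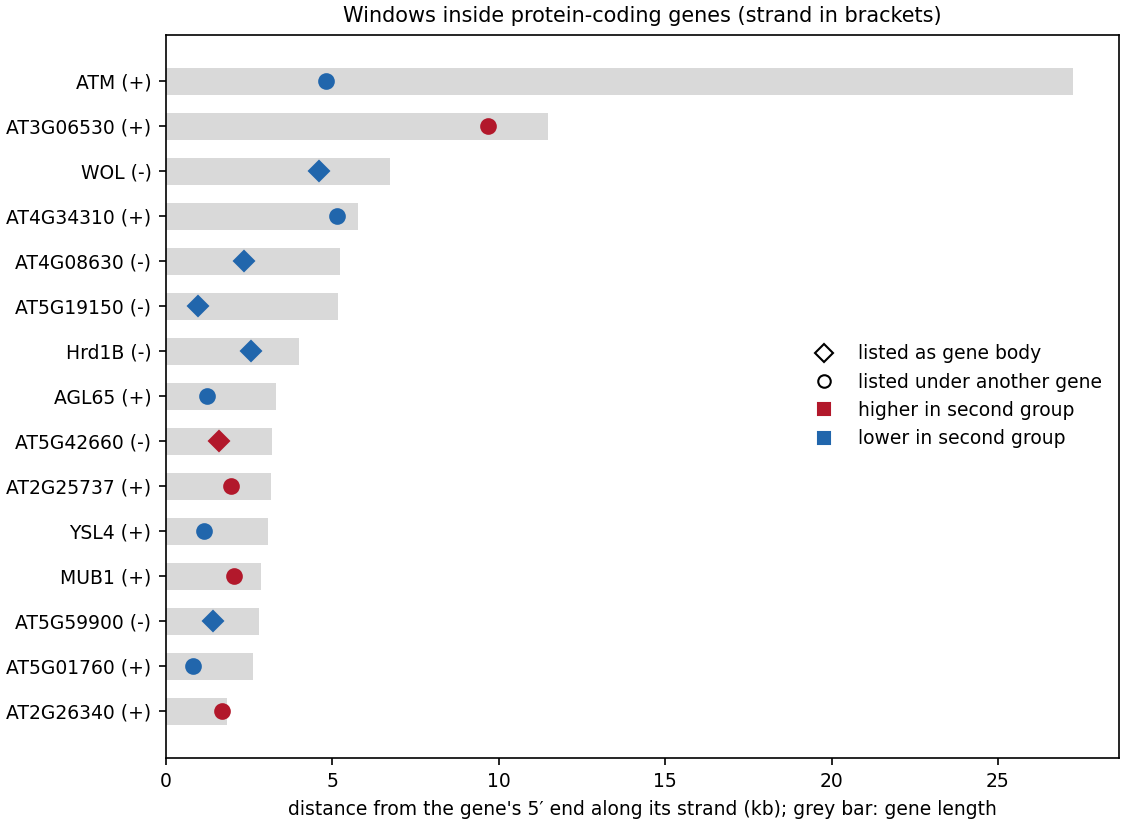
Position of the 15 windows inside protein-coding genes, as the distance of the window's centre from the 5′ end of the gene (kb, x axis), with the gene's length in grey. Diamonds, all in minus-strand genes, were listed as gene body. Circles, all in plus-strand genes, had another gene in the authors' column for the 3′ gene.

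None of 25 genes for DNA methylation and demethylation, among them MET1, CMT3, DRM2, DDM1 and ROS1, was listed for a window or overlapped one. Of all 27444 protein-coding genes, 30 (0.109%) were listed for a window or contained one, and at such a share nothing can be read from a count of 0 in a list of this size. Of 18 genes of the DNA damage response, 17 could be matched to the annotation, and of these ATM contained the window described above, with a level of 0.907 in S1γ110 and 0.572 in S2γ110. This window was not listed in another comparison. ATM is 27265 bp long, and at the share above nothing can be read from a window in a gene of this list either. Transcript levels of these genes were not analysed here.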

How the data were processed

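Reads were aligned by the authors to the TAIR10.31 genome in CLC Genomics Workbench 20.0, which also called CG, CHG and CHH methylation separately, with a minimum coverage of 5 per site and at least 3 samples. The values deposited are fractions, 1 level per group and 200 bp window, for windows that passed the authors' limits of 0.05 on p and 20% on the difference. Whether these limits apply to the adjusted p is not stated in the methods. The nearest gene was added by them with CLC and the nearest TE with bedtools. The listed gene used here is that of their column for the 3′ gene. The authors' columns of p-values, adjusted p-values (R 3.5.0), differences and status were not used. Differences were computed from both listed levels.

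Depth per sample is not in the tables, so no interval was given. Replicates could not be compared. A window listed for several TEs was counted once. CG sites, genes and sequences were taken from RefSeq TAIR10.1. Since its name differs from TAIR10.31, the builds were compared. Of 2331 different listed CG windows, 0 lacked a CG there (4.84% of all windows did), 0 ran past a chromosome end, and 1168 of 1179 entries listed as gene body overlapped the named gene (99.1%). A gene was matched by locus, symbol or synonym on the same chromosome, for 21 of 21 windows. The same group and window had the same level in all tables that listed it (724 cases, largest difference 0).

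Every window was named except 1, which enters the counts and is not reported or drawn here. Sequences were printed for the largest absolute difference of each comparison and for 2 windows chosen after seeing the data. The windows, comparisons and gene lists were chosen with earlier results of these data known. Alternatives were every listed entry, a difference of at least 30%, joining windows within 200 bp, gene or exon overlap by the annotation, touching windows and CG sites split by a window end. The counting was tested on simulated data. Python 3.11.15, NumPy 2.4.6, pandas 2.3.3 and matplotlib 3.10.9 were used.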

Additional observations from a re-analysis of the deposited data

How the results depend on the processing

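At a difference of at least 30%, S1γ0 vs. S1γ110 kept 1 of its 2 windows, hypermethylated in 1 case, S2γ0 vs. S2γ110 kept 4 of 5 and S1γ110 vs. S2γ110 kept 10 of 14. Windows in gene bodies numbered 6 as listed, 15 by overlap with a protein-coding gene, 14 by overlap with an exon and 14 by overlap with a coding exon, an alternative chosen after seeing the data. Of the alternatives compared, 13 gave the same value or a count within 1.5 times that reported, among them the number of windows with 1 CG (9) and of those found in another comparison (9). An alternative of TEs within 200 bp was not run because the tables used give no distance. No paired analysis was possible because the tables hold 1 level per group, and no sample could be left out in turn for the same reason. Spread between plants, coverage and the windows that did not pass the authors' filter are unknown here.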

Other observations

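Windows next to those described were listed for plants under 30 mGy/h in 3 places within 1000 bp, each given here as values only. Directly before the HRD1B window, at chr1:24160801-24161000, the level was 0.337 in P0γ30, 0.324 in S1γ30 and 0.319 in S2γ0, against 0.0180 in S2γ30. Directly after the RAPTOR2 window, at chr5:292601-292800, it was 0.544 in S2γ0 and 0.182 in S2γ30. A short way before the AT1G52905 window, at chr1:19704001-19704200, it was 0.403 in S1γ30 and 0.825 in S2γ30. Each neighbour had the same direction as the window itself, and none was listed in a comparison with γ110.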
